A study of Mus musculus with 137 samples.

Results

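Retromer is described here through 10 genes: Vps35, Vps29, Vps26a and Vps26b, which encode the subunits of the core complex, and Snx1, Snx2, Snx3, Snx5, Snx6 and Snx27, which encode the sorting nexins that work with it. They were taken by symbol from count tables of 34573 gene symbols, and all 10 passed the filter on low counts in each of the 3 cohorts. RNA came from mouse macrophages grown for 7 days out of bone marrow with M-CSF at 20 ng/ml, from mice aged 7 weeks. The cells were left untreated (0 h) or were stimulated for 6 h or 24 h with LPS (100 ng/ml) plus IFN-gamma (100 ng/ml). In the cohorts named KO1 and KO2, mutant cells were Beclin1 flox/flox LysM-Cre+ (KO) and control cells were Beclin1 flox/flox without Cre (WT), so that both carried the floxed allele. LysM-Cre cuts in cells of the myeloid lineage, and bulk RNA holds whatever share of cells escaped it. In the cohort named KI, cells homozygous for Beclin1 F121A, a point mutation present in every cell, were compared with littermates (WT). Beclin1 is part of a lipid kinase complex that makes phosphatidylinositol 3-phosphate on endosomes and at sites of autophagosome formation. Each group holds 3 cultures in KO1, each the sum of 3 repeat libraries, 6 libraries in KI and 8 in KO2, except 7 for KO2 WT at 24 h.

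Retromer returns membrane proteins from endosomes to the trans-Golgi network or to the plasma membrane and so keeps them from being degraded in lysosomes. VPS35 is the scaffold, and VPS26 (made from either of a pair of genes) and VPS29 bind its ends. The sorting nexins bind endosomal membrane, several of them through PX domains that bind phosphatidylinositol 3-phosphate and related lipids. SNX1 or SNX2 pairs with SNX5 or SNX6 through BAR domains that bend membrane into tubules, while SNX3 and SNX27 act as cargo adaptors, SNX27 through a PDZ domain. Macrophages take up much membrane and cargo through endosomes, and many of their surface receptors recycle by these routes.

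The depth was 7160692 to 13050478 counts per culture in KO1, 1448218 to 15627379 per library in KO2 and 3574158 to 11786453 in KI. Becn1, the targeted gene, was lower in KO cells at every time in KO1 (log2 fold change from -1.52 to -1.41) and in KO2 (from -3.31 to -2.63), and it differed by -0.08 to 0.05 in KI, where a point mutation need not change its level. All KO2 WT libraries had Xist and none of the KO2 KO libraries did beyond 1.62 CPM (unscaled), with Ddx3y the other way round, so in KO2 the effect of sex and that of genotype cannot be told apart. The summed macrophage markers were present in every KO1 culture and every KO2 and KI library, and none of these markers was at 0 over a whole group. In KI at 6 h and 24 h the summed neutrophil markers stood lower in F121A cells (6.45 to 11.4 and 2.96 to 4.91 CPM) than in WT cells (12.03 to 22.4 and 6.25 to 11.5), with Elane at 0 in each of these groups, and the summed dendritic cell markers at 6 h did too (9.58 to 15.03 against 15.9 to 22.7). In KO1 at 0 h the neutrophil markers stood higher in KO (290 to 1304) than in WT cultures (134 to 219). In KO1 at 24 h the marker sums of KO and WT cultures were apart for macrophages (5410 to 7395 against 9339 to 9604), neutrophils (25.1 to 97.9 against 18.7 to 22.8), stroma (1.61 to 2.38 against 3.19 to 14.4), dendritic cells (8.58 to 13.5 against 5.18 to 8.52) and lymphocytes (0.690 to 0.833 against 0.172 to 0.527). The KI F121A library at 0 h numbered 5 stood apart from its group, with the lowest macrophage marker sum there (10649, group median 17567). All marker sums given here are unscaled CPM, and the scaling factors of this group, described below, ran from 1.18 to 1.94. Part of a gap between sums can therefore be one of scale. Labels of 2 samples at 6 h conflict between fields (a KO1 KO repeat and a KI WT library). The labels do not say whether KO2 and KI libraries came from separate animals, so p-values measure the spread between these libraries, and in bulk RNA fewer cells of a type and less RNA per cell cannot be told apart.

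Levels are CPM, counts relative to the library total, scaled by TMM, which sets the bulk of genes equal between libraries, and changes are log2 fold changes ± SE from edgeR's quasi-likelihood test, called at a Benjamini-Hochberg adjusted p under 0.05 over all genes tested. The scale matters for comparisons between times: scaling factors in WT cells ran from 1.18 to 1.73 at 0 h and from 0.647 to 0.907 at 6 h. With plain library totals the median change of all genes from 0 h to 6 h in WT cells was -1.11 (KO1), -0.93 (KO2) and -1.19 (KI). From 0 h to 24 h it was -1.14, -0.47 and -0.84. A change below is therefore one relative to most other genes, and its sign can turn with library totals.

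Per kilobase of exon, the 10 genes ranked in nearly one order in unstimulated WT cells of all cohorts. Length here is that of the merged exons of all annotated transcripts, and the rank of a gene depends on it. For Snx5 it is 4177 bases, where the longest transcript has 2512. For Vps29 it is 6148 bases and for Vps26a 2860, so the distance between these genes rests on the lengths used. Snx3 stood highest, with a mean TMM-scaled level of 197 per kilobase in KO1, 249 in KO2 and 140 in KI. Snx5 followed at 89.0, 83.5 and 72.8, and then Vps26a at 50.1, 52.04 and 63.3. Snx2, Snx1, Vps35 and Snx6 lay between 12.9 and 43.5 and changed places between cohorts. Vps29 (6.72 to 8.45), Vps26b (3.98 to 4.78) and Snx27 (3.79 to 4.08) were the lowest by these lengths. After 6 h of stimulation this order was different: Snx2 reached 248, 168 and 135 per kilobase, the highest of the 10 in KO1 and next to Snx3 (207 and 146) in KO2 and KI. Snx5 stood at 36.1, 28.6 and 30.6 at that time, below Snx6 at 78.3, 65.4 and 43.6. In KI this order depends on the lengths used, since the ratio of the Snx5 to the Snx6 counts was 0.950 (0.866 to 1.15). The lowest count of any member in a library was 13, for Vps26b in KO1.

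In WT cells, 6 h of LPS and IFN-gamma moved the retromer-associated sorting nexins in opposite directions while Vps35, the scaffold, did not pass the test in any cohort. Snx2 and Snx6 rose 2.77-fold to 5.83-fold, and Snx5, Snx1 and Vps26b fell, in all 3 cohorts. Called members numbered 3 higher and 3 lower in KO1, 4 and 5 in KO2 and 4 and 3 in KI. This response moved most of the transcriptome, with 56.7% of genes tested called in KO1, 70.8% in KO2 and 73.5% in KI, so the number of members called says nothing particular about them. The median change of the 10 members was -0.08, -0.28 and 0.02, beside -0.09, -0.11 and 0.00 over all genes. With library totals the split became 2 higher and 7 lower in KO1, 2 and 7 in KO2 and 2 and 8 in KI, against 1385 higher and 7851 lower, 1802 and 7246, and 1763 and 8183 over all genes. Over 10612 genes tested in all cohorts, 48.9% were called in the same direction in all 3, against 5 of the 10 members.

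**Figure D1:**
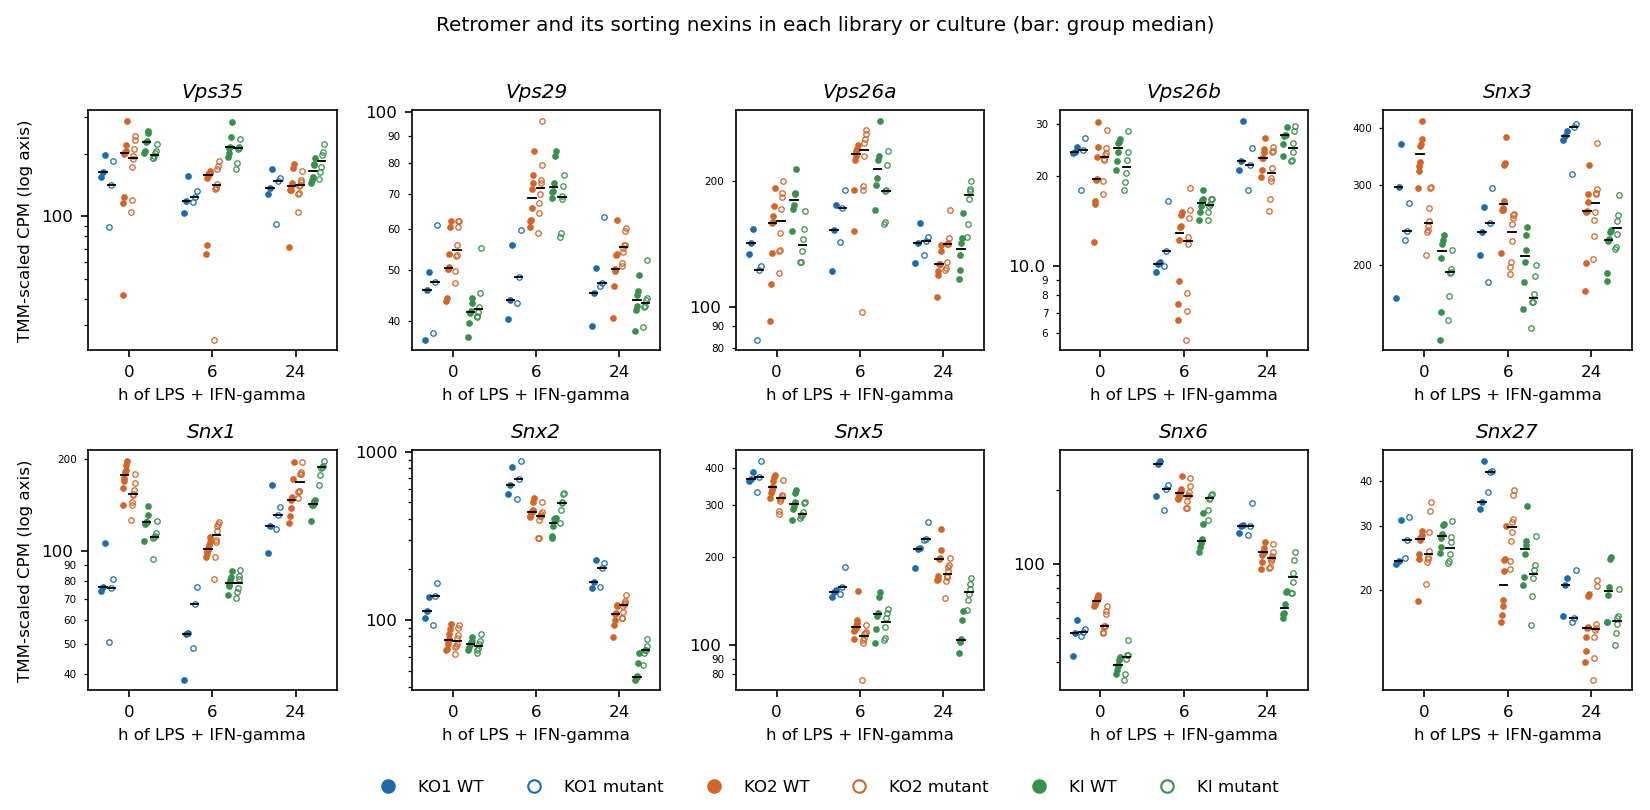
TMM-scaled CPM (log axis) of each of the 10 genes at 0 h, 6 h and 24 h of LPS and IFN-gamma. Points are KO1 cultures or single KO2 and KI libraries (filled WT, open mutant; KO1 blue, KO2 orange, KI green) and bars are group medians. Snx2 and Snx6 peak at 6 h and Snx5 is highest at 0 h in every cohort, and a few KO2 points of Vps35 lie far below their groups.

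Among the core subunits, Vps35 in the WT cultures of KO1 had 154, 164 and 197 CPM at 0 h and 104, 156 and 119 at 6 h. In KO2 WT it ran from 41.9 through a median of 202 to 287 at 0 h and from 66.1 through 158 to 165 at 6 h. In KI WT it ran from 201 through 229 to 257 and from 194 through 215 to 285. The groups overlapped in every cohort. The change was -0.44 ± 0.26, -0.35 ± 0.24 and -0.02 ± 0.10, with 95% intervals of -0.95 to 0.06, -0.83 to 0.12 and -0.22 to 0.17. With library totals it was -1.48, -1.17 and -1.22, each called, which is -0.36, -0.24 and -0.03 from the median of all genes on that scale. The Vps35 locus (mm10 8:85260392-85299802, minus strand) overlaps Orc6 on the opposite strand by 171 bases, and reads carry no strand.

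Vps29, the small subunit that binds the far end of VPS35, rose at 6 h in KO2 and KI on the TMM scale. Its WT level went from 43.8 through 50.6 to 62.0 at 0 h to 60.4 through 68.7 to 84.4 at 6 h in KO2. In KI it went from 37.3 through 41.6 to 44.4 at 0 h to 68.8 through 71.9 to 84.3 at 6 h. The KI groups did not overlap and the KO2 groups did slightly. The change was 0.42 ± 0.09 (adjusted p = 7.8e-05) in KO2 and 0.86 ± 0.09 (1.3e-11) in KI, but 0.08 ± 0.21 (0.763) in KO1, and with library totals it turned to -0.95, -0.41 and -0.35. Vps29 overlaps Fam216a on the opposite strand by 340 bases. Vps26a, one of the VPS26 genes, changed by 0.56 ± 0.13 (0.00023) in KO2 and 0.26 ± 0.11 (0.0334) in KI and by 0.07 ± 0.21 (0.799) in KO1, and it too turned negative with library totals (-0.98, -0.27 and -0.94). The KI call of Vps26a was lost without the F121A library at 0 h numbered 5 (0.16), which enters through the shared estimate of scaling and spread.

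Vps26b, its paralogue, fell. The KO1 WT cultures had 24.1, 25.02 and 24.03 CPM at 0 h and 10.4, 10.2 and 9.61 at 6 h. KO2 WT libraries went from 12.1 through 19.5 to 30.4 down to 6.64 through 12.9 to 15.3, and KI WT libraries from 20.99 through 24.9 to 26.6 down to 14.4 through 16.3 to 18.03. Values at 6 h lay below all those at 0 h in KO1 and KI, and the KO2 groups overlapped. The change was -1.28 ± 0.22 (adjusted p = 6.4e-05), -0.80 ± 0.18 (8.1e-05) and -0.58 ± 0.10 (2.6e-06), and the sign held with library totals (-2.30, -1.62 and -1.78).

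The SNX-BAR genes showed the widest movements of the 10. Snx2 in KO1 WT cultures had 113, 103 and 136 CPM at 0 h and 565, 631 and 817 at 6 h. In KO2 WT it went from 66.3 through 76.4 to 94.2 up to 411 through 441 to 532, and in KI WT from 66.6 through 72.1 to 79.3 up to 306 through 380 to 407. No library at 6 h came near the highest one at 0 h. The change was 2.51 ± 0.29 (adjusted p = 5.4e-07, 5.71-fold), 2.54 ± 0.11 (1.2e-29, 5.83-fold) and 2.34 ± 0.11 (4.8e-23, 5.05-fold), and with library totals it remained positive at 1.47, 1.72 and 1.13. A stretch of 242 bases of Snx2 matches Snx30 at 99.59%, and Snx30 had 4.17% of the counts of Snx2.

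Snx6, a partner of SNX1 and SNX2 in the tubule-forming dimer, rose with Snx2. KO1 WT cultures had 59.0, 52.3 and 42.0 CPM at 0 h and 254, 262 and 188 at 6 h. KO2 WT libraries went from 67.3 through 70.8 to 74.9 up to 184 through 194 to 227, and KI WT libraries from 35.5 through 38.6 to 41.7 up to 112 through 124 to 161. The groups were apart in every cohort. The change was 2.20 ± 0.21 (adjusted p = 5.0e-08), 1.47 ± 0.08 (2.7e-25) and 1.76 ± 0.11 (7.6e-19), with 1.19, 0.64 and 0.55 under library totals.

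Snx5, the paralogue of Snx6 with the same place in the dimer, moved the other way. KO1 WT cultures had 388, 366 and 361 CPM at 0 h and 146, 154 and 152 at 6 h. KO2 WT libraries went from 318 through 346 to 379 down to 105 through 116 to 153, and KI WT libraries from 267 through 302 to 337 down to 102 through 127 to 151. No 6 h value reached the lowest 0 h value in any cohort. The change was -1.30 ± 0.19 (adjusted p = 1.4e-05), -1.55 ± 0.09 (5.0e-23) and -1.25 ± 0.09 (9.8e-16), and -2.33, -2.38 and -2.45 with library totals. Snx5 overlaps Mgme1 on the opposite strand by 206 bases.

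Snx1, the paralogue of Snx2, fell as Snx2 rose. KO1 WT cultures had 76.7, 74.5 and 106 CPM at 0 h and 38.3, 53.8 and 54.3 at 6 h. In KO2 WT they went from 141 through 177 to 196 down to 95.7 through 102 to 111, and in KI WT from 108 through 125 to 141 down to 72.3 through 79.2 to 86.1. All 6 h values lay below all 0 h values within each cohort. The change was -0.81 ± 0.25 (adjusted p = 0.0088), -0.77 ± 0.09 (7.6e-11) and -0.66 ± 0.08 (3.4e-10), with -1.86, -1.59 and -1.86 under library totals; the KO1 call was lost without WT culture S33 (-0.75, adjusted p = 0.054).

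The cargo adaptors gave no common direction at 6 h. Snx3, which forms a retromer coat without BAR-domain nexins, changed by -0.23 ± 0.26 (0.475), -0.27 ± 0.11 (adjusted p = 0.0313) and 0.06 ± 0.12 (0.63) in WT cells of KO1, KO2 and KI, and the KI value turned to -1.15 with library totals. Its WT levels overlapped between 0 h and 6 h in every cohort, with medians of 298 and 236 in KO1, 351 and 272 in KO2 and 215 and 209 in KI. Snx27, the PDZ adaptor for receptors and transporters that return to the cell surface, was called higher in KO1 (0.53 ± 0.19, adjusted p = 0.0231), lower in KO2 (-0.29 ± 0.13, 0.0487) and was not called in KI (-0.12 ± 0.12, 0.381). The KO1 value of Snx27 turned to -0.51 with library totals, and its call was lost without WT culture S34 (0.50) or S35 (0.30).

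Between 6 h and 24 h in WT cells, the 5 members that had moved alike in all cohorts moved in the reverse direction, apart from Snx5, which rose by 0.70 on the log2 scale in KO2, was 0.43 higher in KO1 without passing the test and fell by 0.22 in KI. Against 6 h, Snx2 fell by 1.87 ± 0.28, 2.11 ± 0.11 and 2.87 ± 0.11 on the log2 scale in WT cells of KO1, KO2 and KI, to 156, 168 and 227 CPM in KO1 cultures, to 79.4 through 109 to 123 in KO2 and to 44.3 through 46.1 to 64.0 in KI. Snx6 fell by 0.74, 0.84 and 0.94, while Vps26b rose by 1.30 ± 0.22, 0.998 ± 0.181 and 0.72 ± 0.10 and Snx1 by 1.39 ± 0.25, 0.56 ± 0.09 and 0.83 ± 0.08. Snx27 fell by 0.95, 0.42 and 0.35 from 6 h to 24 h. All of these values from Snx2 to Snx27 passed the test, in a comparison that called 54.6%, 59.0% and 65.4% of genes. With library totals the changes of Snx2, Snx6, Vps26b and Snx1 were still called with the same sign, but Snx27 was -0.03 in both KO2 and KI and was not called there, and Snx5 in KI was 0.10. The members called were 3 higher and 3 lower in KO1, 3 and 5 in KO2 and 2 and 7 in KI. With library totals they were 3 and 3, 3 and 3, and 3 and 4, against 3598 and 3239, 5231 and 1758, and 5119 and 2492 over all genes.

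Against 0 h, Snx5 and Snx6 were the 2 members called in the same direction at 24 h in WT cells of all cohorts, where 31.8% of 10612 genes were. Snx5 stood at 183, 214 and 212 CPM in KO1, at 167 through 196 to 248 in KO2 and at 94.2 through 104 to 131 in KI. This was -0.87 ± 0.19 (adjusted p = 0.0011), -0.85 ± 0.09 (3.1e-12) and -1.47 ± 0.09 (6.5e-18) from 0 h, below every 0 h value. Snx6 stood at 144, 143 and 134, at 94.9 through 111 to 123 and at 60.4 through 66.0 to 77.7, which was 1.45 ± 0.20 (1.2e-05), 0.63 ± 0.08 (1.9e-10) and 0.82 ± 0.10 (4.8e-09), and above every 0 h value, though the KI value turned to -0.06 with library totals. Called members numbered 1 higher and 1 lower in KO1, 2 and 4 in KO2 and 2 and 5 in KI, beside 41.9%, 59.3% and 63.8% of all genes. With library totals they were 0 and 6, 0 and 7, and 0 and 9. Over all genes this scale called 1031 higher and 8761 lower, 1696 and 5568, and 1634 and 7766.

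The other members differed between cohorts at 24 h. Vps35 was -0.46 ± 0.10 (adjusted p = 9.8e-05) from 0 h in KI, where all 6 WT libraries (145 through 166 to 192) lay below those at 0 h, and -0.25 ± 0.26 (0.463) and -0.33 ± 0.25 (0.263) in KO1 and KO2. Snx2 was 0.43 ± 0.10 (0.00035) above its 0 h level in KO2 and -0.53 ± 0.10 (2.4e-05) from it in KI, and with library totals the KO2 value was -0.03. Snx1 was called lower in KO2 (-0.21 ± 0.09, 0.046) and higher in KI (0.17 ± 0.07, 0.0463); the KI value turned to -0.71 with library totals and its call was lost under DESeq2 (0.07) and without the 0 h F121A library numbered 5 (0.10). Snx3 was called in KO2 (-0.46 ± 0.12, 0.00071) and not in KO1 (0.47 ± 0.26, 0.16) or KI (0.14 ± 0.11, 0.283), whose values were -0.56 and -0.74 with library totals. Snx27 was lower in KO2 (-0.71 ± 0.13, 8.3e-06) and KI (-0.47 ± 0.12, 0.00069) and was not called in KO1 (-0.42 ± 0.19, 0.0838).

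Both pairs of sorting nexins, and the VPS26 pair, are paralogues, and their counts were compared as ratios within each library, which no scaling between libraries touches. The ratios are of counts, not per length, so their change over time carries the result, not their distance from 1. Snx5 to Snx6 fell from a median of 7.00 (6.57 to 8.59) at 0 h to 0.589 (0.576 to 0.805) at 6 h in KO1 WT, from 5.09 (4.46 to 5.52) to 0.600 (0.571 to 0.675) in KO2 WT and from 7.78 (7.21 to 8.75) to 0.950 (0.866 to 1.15) in KI WT. At 24 h its medians were 1.502, 1.76 and 1.64. The 0 h and 6 h ranges were far apart in all cohorts, and 24 h lay between them. Snx1 to Snx2 had medians of 0.721, 0.0677 and 0.717 at 0 h, 6 h and 24 h in KO1 WT, 2.23, 0.228 and 1.41 in KO2 WT and 1.73, 0.215 and 2.96 in KI WT. It was lowest at 6 h in each cohort, and at 24 h stood below its 0 h range in KO2 for part of the libraries (1.14 to 1.80 against 1.71 to 2.598) and above it in KI (2.25 to 3.27 against 1.51 to 2.12). Vps26a to Vps26b rose from 5.69 (5.55 to 6.40), 7.91 (5.44 to 9.90) and 7.13 (6.62 to 8.93) at 0 h to 15.03 (11.8 to 18.2), 18.7 (15.1 to 25.6) and 12.9 (10.1 to 17.4) at 6 h, without overlap, and was 6.75, 5.24 and 5.21 at 24 h.

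**Figure D2:**
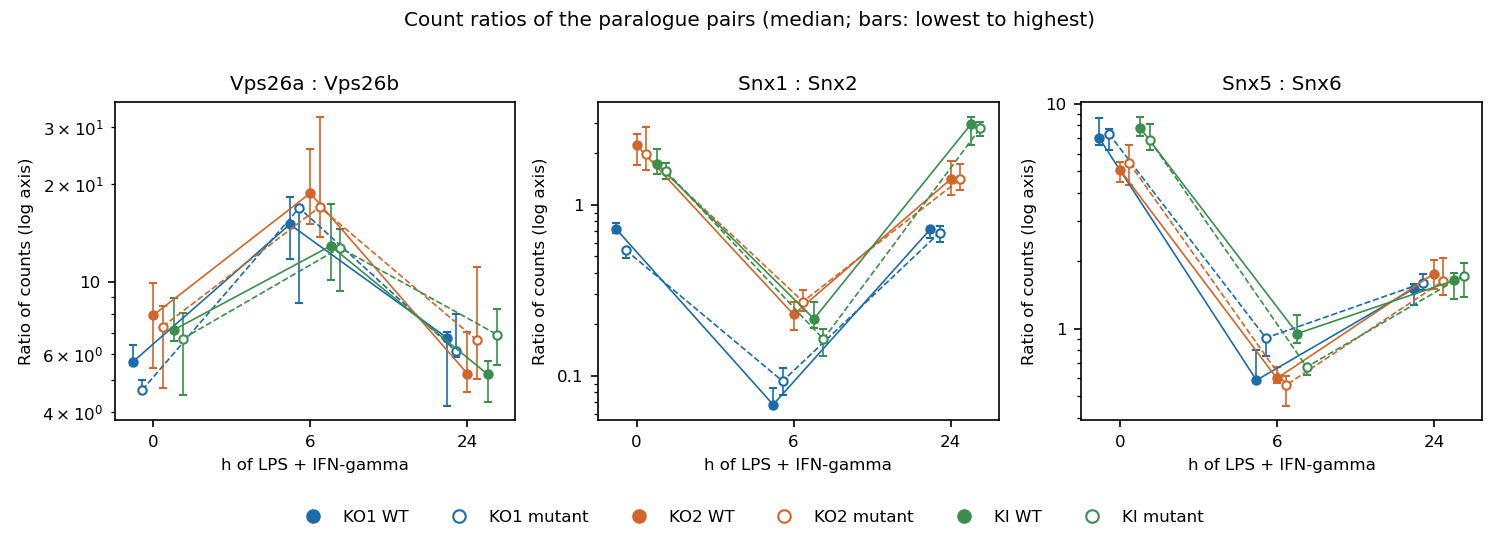
Ratio of counts within a library (KO1: within a culture) for Vps26a to Vps26b, Snx1 to Snx2 and Snx5 to Snx6, on log axes, at 0 h, 6 h and 24 h. Points are group medians and bars run from the lowest to the highest value (filled with solid lines WT, open with dashed lines mutant; KO1 blue, KO2 orange, KI green). Vps26a to Vps26b peaks at 6 h, where Snx1 to Snx2 and Snx5 to Snx6 are lowest, in every cohort and genotype.

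The promoter windows of the VPS26 genes and of Snx5 and Snx6 are shown because the members of these pairs moved apart at 6 h. They run from 250 bases before to 50 bases after the gene start in RefSeq (build GRCm38.p6, which has the coordinates of mm10) and are written 5′ to 3′ along the gene, all on the minus strand. Capitals mark matches, on either strand, to CACGTG (bound by TFEB and related factors of lysosomal genes), its longer form TCACGTG, GAAANNGAA (interferon-regulatory factor type), TTCNNNGAA (STAT type), GGGANNTTC (NF-kappaB type) and TGACGTC (CREB and ATF type), and matches that overlap run together.
Vps26a (chr10:62486756-62487055): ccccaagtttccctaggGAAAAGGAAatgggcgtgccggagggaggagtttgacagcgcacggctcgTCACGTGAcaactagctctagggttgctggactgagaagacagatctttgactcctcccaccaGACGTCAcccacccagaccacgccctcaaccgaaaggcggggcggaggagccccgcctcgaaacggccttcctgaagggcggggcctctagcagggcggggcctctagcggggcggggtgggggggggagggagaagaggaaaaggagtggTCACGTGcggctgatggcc
Vps26b (chr9:27030045-27030344): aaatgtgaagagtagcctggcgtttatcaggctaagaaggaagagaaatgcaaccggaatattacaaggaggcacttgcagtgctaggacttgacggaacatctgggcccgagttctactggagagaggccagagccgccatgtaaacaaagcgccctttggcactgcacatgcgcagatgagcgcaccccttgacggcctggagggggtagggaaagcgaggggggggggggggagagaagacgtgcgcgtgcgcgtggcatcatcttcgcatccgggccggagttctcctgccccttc
Snx5 (chr2:144270523-144270822): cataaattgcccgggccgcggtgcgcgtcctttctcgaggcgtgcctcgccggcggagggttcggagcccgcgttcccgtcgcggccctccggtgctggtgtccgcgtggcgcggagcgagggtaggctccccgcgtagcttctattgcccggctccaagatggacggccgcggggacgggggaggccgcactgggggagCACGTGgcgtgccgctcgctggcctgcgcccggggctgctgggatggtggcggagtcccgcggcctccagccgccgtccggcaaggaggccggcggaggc
Snx6 (chr12:54795613-54795912): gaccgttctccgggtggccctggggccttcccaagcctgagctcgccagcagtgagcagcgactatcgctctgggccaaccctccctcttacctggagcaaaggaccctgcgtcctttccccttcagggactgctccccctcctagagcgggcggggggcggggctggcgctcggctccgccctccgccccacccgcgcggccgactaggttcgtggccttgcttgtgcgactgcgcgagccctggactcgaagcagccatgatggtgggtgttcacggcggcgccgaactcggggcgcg
The Vps26a window held CACGTG at -182 and at 32 relative to the start, both within TCACGTG, GAAANNGAA at -233 and TGACGTC at -120. A second Vps26a start in RefSeq (10:62486549-62486848) held CACGTG at -175, which is the site at 32 of the first window, and at -151. The Snx5 window held CACGTG at -50, and the Vps26b and Snx6 windows held no match. Among 32851 promoter windows of this length, 7.15% held CACGTG, 3.765% TCACGTG, 8.56% GAAANNGAA, 8.298% TTCNNNGAA, 3.942% GGGANNTTC and 3.205% TGACGTC. G and C made up 64.67% of the Vps26a window, 58.67% of Vps26b, 75.67% of Snx5 and 70.33% of Snx6, beside a median of 52.67%. RefSeq windows were matched for 7 of the 10 genes, and those of Vps29, Snx1 and Snx3 held no match. A match is a run of letters, and binding was not measured.

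The members that moved most in WT cells also moved in mutant cells, and in the same directions. At 6 h Snx2 rose by 2.39 ± 0.28, 2.37 ± 0.10 and 2.79 ± 0.11 in the mutant cells of KO1, KO2 and KI, and Snx6 by 1.86, 1.71 and 2.13. Snx5 changed by -1.20, -1.59 and -1.27 and Vps26b by -0.87 ± 0.21, -0.95 ± 0.17 and -0.47 ± 0.10, all called, and the KO1 call of Vps26b was lost without KO culture S36 (-0.66, adjusted p = 0.06). Vps26a rose in all mutant groups on the TMM scale (0.61 ± 0.21, 0.43 ± 0.13 and 0.42 ± 0.11) but with library totals it was -0.65, -0.36 and -0.90. Vps35 was not called in any of them (-0.15, -0.41 and 0.02), and the KI value was -1.29 and called with library totals. Snx1 was called in KO2 (-0.48 ± 0.09) and KI (-0.50 ± 0.08) and not in KO1 (-0.11 ± 0.24). In all, 4 members rose and 2 fell in KO1, 4 and 3 in KO2 and 4 and 4 in KI, where 55.3%, 74.3% and 74.5% of genes were called. With library totals 2 members were called higher and 8 lower in each cohort. Over all genes this scale called 1167 higher and 8872 lower in KO1, 1901 and 7256 in KO2 and 1759 and 8482 in KI.

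At 24 h against 0 h, mutant cells kept Snx6 higher (1.51 ± 0.20, 0.86 ± 0.07 and 1.15 ± 0.10) and Snx5 lower (-0.65 ± 0.19, -0.84 ± 0.09 and -0.92 ± 0.09) in the 3 cohorts. Snx27 was lower in each (-0.60, -0.74 and -0.69). Snx1 was above its 0 h level in KO1 KO (0.91 ± 0.25, adjusted p = 0.0064) and KI F121A (0.72 ± 0.08, 2.8e-11) and not called in KO2 KO (0.15 ± 0.09, 0.161), and with library totals it was -0.14, -0.26 and -0.50 in KO1, KI and KO2. The members called were 2 higher and 2 lower in KO1, 2 and 2 in KO2 and 5 and 2 in KI, beside 38.5%, 58.3% and 66.3% of genes. With library totals they were 0 higher and 6 lower, 1 and 8, and 0 and 9, against 886 and 8992, 1425 and 7222, and 1543 and 8297 over all genes. From 6 h to 24 h, Snx2 fell by 1.86, 1.74 and 2.90 in the mutant cells, and Snx1 rose by 1.01, 0.62 and 1.22, among 3 higher and 2 lower, 3 and 5, and 4 and 4 members called (48.1%, 55.5% and 65.1% of genes), which with library totals became 4 and 2, 4 and 4, and 4 and 3. Over all genes the library totals called 3981 higher and 2049 lower, 3719 and 2279, and 5007 and 2654 over this interval. With culture number as a block in KO1, whose numbers pair 6 h with 24 h, Snx3 was also called in KO cells over this interval (0.64, adjusted p = 0.036, against 0.63 and 0.0521 without the block).

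Differences between genotypes stayed within 0.49 on the log2 scale for every member that passed the test. Deletion of Beclin1 in KO1 called none of them at 0 h, 6 h or 24 h, where 0.0219%, 0.0219% and 0.00730% of all genes were called. None of the members had an unadjusted p under 0.05 at these times, which 846, 655 and 948 of 13693 genes reached. KO2 called Snx3 and Snx6 lower at 0 h, Snx3 lower and Snx27 higher at 6 h and none at 24 h. With library totals KO2 called Snx3 alone at 0 h and, at 6 h, none lower and Snx27, Snx1 (0.30, adjusted p = 0.006) and Vps29 (0.30, 0.045) higher, on a scale where the median of all genes was 0.24. Over all genes this scale called 1008 higher and 165 lower at 0 h and 2186 and 336 at 6 h. KI called none at 0 h, Snx2 and Snx6 higher at 6 h and Vps26a, Snx1, Snx2, Snx5 and Snx6 higher at 24 h. The shares of all genes called were 8.28%, 15.4% and 11.3% at 0 h, 6 h and 24 h in KO2 and 2.94%, 11.5% and 7.20% in KI. DESeq2, with its own scaling, also called no member in KO1, in KO2 at 24 h or in KI at 0 h. An unadjusted p under 0.05 in the edgeR test was reached by 0 members in KO2 at 24 h and by 2 in KI at 0 h. Of all genes, 2515 of 10794 and 1337 of 11500 reached it there.

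**Figure D3:**
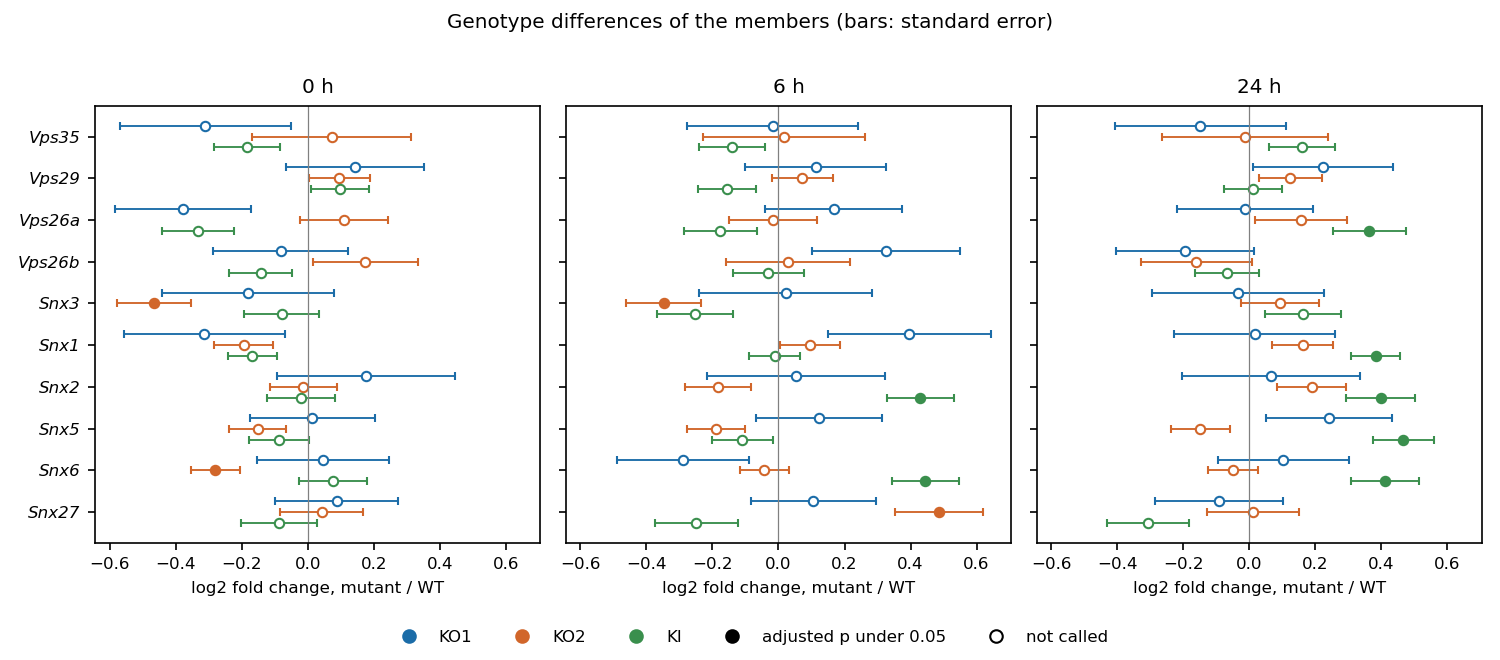
Log2 fold change of mutant against WT cells (± SE) for each of the 10 genes at 0 h, 6 h and 24 h, by cohort (KO1 blue, KO2 orange, KI green); filled points passed an adjusted p of 0.05 over all genes. At 24 h the 5 filled KI points lie to the higher side, from 0.36 to 0.47.

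Vps35, the scaffold, did not pass the test between genotypes at any time in any cohort. Its difference was -0.31, -0.02 and -0.15 at 0 h, 6 h and 24 h in KO1, with 95% intervals of -0.82 to 0.20, -0.53 to 0.49 and -0.66 to 0.36. It was 0.07, 0.02 and -0.01 in KO2, with intervals of -0.40 to 0.54, -0.46 to 0.50 and -0.50 to 0.48. In KI it was -0.19, -0.14 and 0.16, with intervals of -0.38 to 0.01, -0.34 to 0.06 and -0.04 to 0.36. Vps29 and Vps26b were not called at any time in any cohort either, apart from Vps29 with library totals in KO2 at 6 h.

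In KO2, Snx3 ran from 296 through 351 to 415 CPM in WT cells at 0 h and from 211 through 247 to 296 in KO cells. The groups overlapped only at their edge. The difference was -0.47 ± 0.11 (adjusted p = 0.0038), called in 23 of 23 alternatives (-0.50 to -0.29). Of the 23 alternatives at 0 h and at 6 h, 16 differ from the main fit only by 1 library left out. At 6 h Snx3 ran from 212 through 272 to 383 in WT and from 191 through 236 to 259 in KO, a difference of -0.35 ± 0.11 (0.0283) that was kept in 14 of 23 alternatives; it was lost without WT replicate 1, 2 or 4 or KO replicate 4, 6 or 8 (-0.32 to -0.28) and was -0.12 (0.34) with library totals. At 24 h it was 0.09 ± 0.12 (0.701), and the genotype difference at 24 h minus that at 0 h was 0.56 ± 0.16, with a joint test of genotype by time at an adjusted p of 0.031 (11.9% of genes called) that was kept in 3 of 6 alternatives and lost with library totals (0.10), without the filter (0.0594) and with summed libraries (0.0759). Snx6 at 0 h ran from 67.3 through 70.8 to 74.9 in WT and from 52.4 through 56.0 to 67.6 in KO, -0.28 ± 0.07 (0.0092), and was kept in 20 of 23 alternatives; it was lost without the filter (adjusted p = 0.136), with summed libraries (0.0805) and with library totals (-0.09, 0.51). Snx27 at 6 h ran from 16.3 through 20.6 to 30.01 in WT and from 22.8 through 29.8 to 37.9 in KO, 0.49 ± 0.13 (0.008), called in 23 of 23 alternatives. Sex differed with genotype in these libraries, and its part in these differences cannot be told apart from that of the deletion. In KO1, where all libraries were of 1 sex, the values for Snx3 were -0.18 ± 0.26 at 0 h and 0.02 ± 0.26 at 6 h, for Snx6 0.05 ± 0.20 at 0 h and for Snx27 0.11 ± 0.19 at 6 h.

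In KI, the members called between genotypes were the SNX-BAR genes and Vps26a. Snx2 at 6 h ran from 306 through 380 to 407 CPM in WT and from 377 through 499 to 566 in F121A cells (0.43 ± 0.10, adjusted p = 0.0028). Snx6 at 6 h ran from 112 through 124 to 161 in WT and from 151 through 185 to 193 in F121A (0.44 ± 0.10, 0.0022). Most F121A libraries lay above the WT ones, with some overlap in both genes, and each was called in 21 of 21 alternatives. Of the 21 alternatives at 6 h and at 24 h, 13 differ from the main fit only by 1 library left out. The Snx5 to Snx6 ratio at 6 h was 0.674 (0.623 to 0.690) in F121A, below all WT libraries (0.866 to 1.15), and the Snx1 to Snx2 ratio was 0.164 (0.131 to 0.187), below the WT range of 0.189 to 0.271. Snx1 and Snx5 themselves did not pass the test at 6 h (-0.01 ± 0.08, 0.959, and -0.11 ± 0.09, 0.519).

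At 24 h all 4 SNX-BAR genes were higher in F121A cells. Snx1 ran from 126 through 143 to 147 in WT and from 165 through 188 to 196 in F121A, without overlap, 0.38 ± 0.08 (adjusted p = 0.0006). Snx5 ran from 94.2 through 104 to 131 in WT and from 132 through 152 to 169 in F121A, also without overlap, 0.47 ± 0.09 (0.00069). Snx2 went from 44.3 through 46.1 to 64.0 in WT to 53.8 through 66.0 to 77.6 in F121A (0.40 ± 0.10, 0.0122) and Snx6 from 60.4 through 66.0 to 77.7 to 75.8 through 88.1 to 112 (0.41 ± 0.10, 0.008), both with overlap. Snx5 and Snx6 were called in 21 of 21 alternatives, Snx1 and Snx2 in 20 of 21 (Snx1 was lost without the filter on low counts, adjusted p = 0.051, and Snx2 with library totals, 0.076). Vps26a, from 117 through 138 to 167 in WT and from 147 through 185 to 199 in F121A, had 0.36 ± 0.11 (0.036) and was called in 10 of 21 alternatives, with losses on leaving out single libraries of either genotype (adjusted p = 0.051 to 0.116). Of all genes, 3.42% were called higher in F121A cells at 24 h, and the median over all genes was 0.00 beside 0.26 over the 10 members. The summed neutrophil markers given above were lower in F121A cells in the same libraries, and their part in these values was not tested.

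The KI differences depended on time for 3 members. The joint test of genotype by time gave an adjusted p of 0.0014 for Snx1, 0.0029 for Snx5 and 0.006 for Vps26a, where 8.29% of genes were called, and 0.0585 for Snx2. The genotype difference at 24 h minus that at 0 h was 0.55 ± 0.11 for Snx1, 0.55 ± 0.13 for Snx5 and 0.70 ± 0.16 for Vps26a. For Vps26a this joins a value of -0.33 ± 0.11 at 0 h (adjusted p = 0.111) to the 0.36 at 24 h. With library totals the joint test kept Snx5 (0.031) and lost Snx1 (0.10) and Vps26a (0.062). In KO1 it called none of 13693 genes. An unadjusted p under 0.05 in this test was reached there by 0 members and by 636 of all genes.

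The difference between cohorts was itself tested in joint fits. KI libraries had Xist at 73.7 CPM (unscaled) or more and KO1 libraries at 5.54 or less, with Ddx3y the other way round, so the comparisons of KI with KO1 and of KI with KO2 KO cells also cross the sexes, and cohort and sex cannot be told apart in them. KO2 minus KI gave -0.59 ± 0.14 (adjusted p = 0.0017) for Snx2, -0.46 ± 0.12 (0.0031) for Snx6 and 0.76 ± 0.19 (0.0021) for Snx27 at 6 h, where 13.6% of 10641 genes were called. At 24 h it gave -0.61 ± 0.13 (0.00026) for Snx5 and -0.46 ± 0.12 (0.0068) for Snx6, with 7.91% of genes called. KO1 minus KI gave -0.72 ± 0.19 (0.0338) for Snx6 at 6 h, with 1.67% of 11409 genes called. At 0 h neither comparison with KI called a member (4.30% and 0.456% of genes), and KO1 minus KI called none at 24 h (0.394%). KO1 minus KO2 called no member at any time (0.512%, 0.484% and 0.307% of genes), with an unadjusted p under 0.05 for 1, 0 and 1 members at 0 h, 6 h and 24 h. Snx6 at 6 h was thus the 1 member called in both comparisons with KI, while for Snx1 at 24 h neither comparison passed.

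Within groups, Vps35 and Vps26a rose and fell together from library to library. The measure was the correlation of deviations from group means, with 100000 permutations of libraries within groups and adjustment over the 141 relations computed. In KO2 Pearson's r was 0.874 and Spearman's rho 0.767 over 47 libraries (p = 1e-05 for both, the smallest that the permutations can give, adjusted p = 0.000705), and r was 0.761 without the 2 libraries farthest in Vps35. Other libraries low in Vps35, named below, stay in that value, so it cannot show the relation outside them. In KI r was 0.796 and rho 0.782 over 36 libraries (p = 1e-05, adjusted p = 0.000705), and 0.773 without the 2 farthest. In KO1, over 18 cultures, r was 0.658 (permutation p = 0.0227, adjusted 0.107) and rho 0.618 (0.0361, adjusted 0.130), which did not pass, and r was 0.450 without the 2 farthest. Vps26a ranked 3 of 11499 genes by its r with Vps35 in KI, 78 of 10793 in KO2 and 562 of 13692 in KO1. With the log2 library total, Vps35 had an r of 0.10 in KO2 (permutation p = 0.432, adjusted 0.670) and of -0.291 in KI (0.104, adjusted 0.244), and rho was 0.109 and -0.284. Over the 18 group means, centred within cohort, the pair had an r of 0.013, a description of means that share the times and cohorts.

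**Figure D4:**
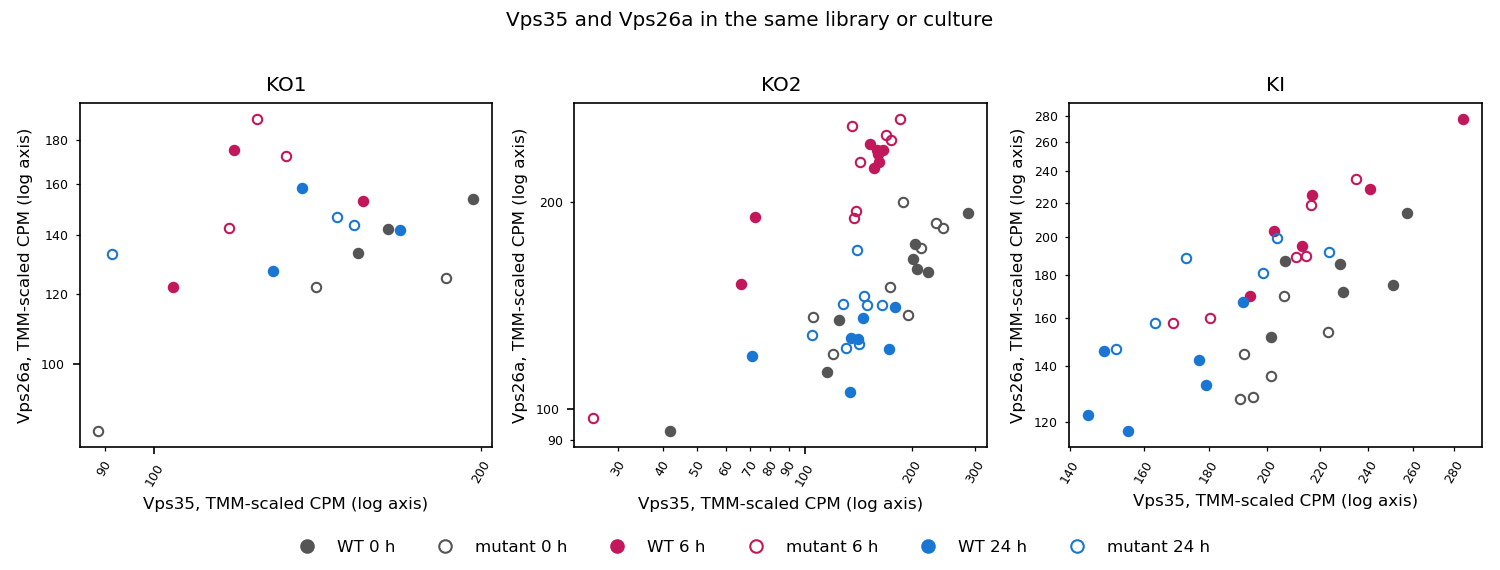
TMM-scaled CPM of Vps35 (x) and Vps26a (y) on log axes, in 1 panel per cohort. Points are KO2 or KI libraries or KO1 cultures (filled WT, open mutant; grey 0 h, magenta 6 h, blue 24 h), and in KO2 5 libraries lie far to the left, down to 25.5 for Vps35.

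Part of the KO2 relation lay in a few libraries with little Vps35. The KO library at 6 h numbered 7 had 25.5 CPM of Vps35, where the others of its group had 135 to 184, and 97.1 of Vps26a, where the others had 190 to 265. Its Nos2, the inducible nitric oxide synthase that marks the response, was 683, the lowest of its group, whose median was 3088. The WT libraries at 0 h numbered 4 (41.9), at 6 h numbered 2 (66.1) and 4 (72.5) and at 24 h numbered 9 (71.0) were also low in Vps35. The spread of Vps35 within groups was accordingly wide in KO2, with a median coefficient of variation of 28.8% and a highest of 43.7%, beside medians of 17.9% in KO1 and 11.8% in KI. In KO2 Vps35 also followed Vps26b (r 0.644, rho 0.549, permutation p adjusted 0.000846, 0.492 without the 2 farthest) and ran against Vps29 (r -0.638, rho -0.560, adjusted p = 0.0012, -0.499 without them). In KI it followed Snx2 (r 0.665, rho 0.641, adjusted permutation p = 0.0018, 0.669 without the 2 farthest), Snx5 (r 0.546, rho 0.546, adjusted 0.0204, 0.516 without them) and Snx6 (r 0.544, rho 0.528, adjusted 0.0173, 0.551 without them). In KO2 its r with Snx2, Snx5 and Snx6 was 0.138, -0.169 and -0.274, and none passed (adjusted permutation p = 0.664, 0.459 and 0.2003). All pairs share their libraries and scaling factors.

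The other genes of these routes were counted from lists by function, on the TMM scale alone. Going from TMM to library totals shifts the median change of all genes at 6 h in WT cells by -1.02, -0.82 and -1.20 in KO1, KO2 and KI. A rise smaller than this shift can turn in sign. Of the WASH complex, which makes actin on endosomes at retromer sites, 3 of the 4 genes tested rose at 6 h in WT cells of each cohort and 1 fell, with medians of 1.17, 0.69 and 0.77 in KO1, KO2 and KI beside -0.09, -0.11 and 0.00 over all genes. They were A230046K03Rik, now Washc4 (1.37, 0.89 and 0.92), Ccdc53, now Washc3 (1.18, 1.02 and 0.62) and Wash (1.16, 0.50 and 1.13). Of the retriever and CCC genes, a related recycling machine that works with SNX17, 0 rose and 10 fell of 14 in KO1, and 1 rose and 9 fell in KO2 and in KI. Its largest shared falls were in Commd10 (-1.55, -1.30 and -1.38), 9030624J02Rik, now Vps35l (-1.04, -1.12 and -0.99) and Commd6 (-1.49, -0.99 and -0.91). Of HOPS and CORVET, the tethers of endosome and lysosome fusion, 0 rose and 7, 7 and 6 of 8 fell, among them Vps8 (-1.58, -1.06 and -1.46), Vps39 (-0.87, -1.04 and -0.87) and Tgfbrap1 (-1.42, -0.85 and -1.12). These counts stand beside 25.7%, 32.5% and 36.7% of all genes called higher and 31.1%, 38.3% and 36.8% called lower.

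Other sorting nexins showed 6 higher and 11 lower of 21 in KO1, 5 and 13 of 20 in KO2 and 7 and 11 of 21 in KI, and the shares of all genes just given are the background for these counts and for those of the regulators and cargo genes. Snx10, an endosomal nexin of macrophages and osteoclasts, rose by 2.68, 2.72 and 2.98, and Snx29 (-3.75, -4.07 and -4.20) and Snx24 (-3.20, -3.92 and -3.67) fell. Of the retromer regulators, 5 rose in each cohort and 1, 1 and 2 fell, of 9, 8 and 8: Ehd1, an ATPase of recycling tubules, rose by 4.21, 5.12 and 5.14, Dnajc13 by 1.59, 1.04 and 1.63, and Tbc1d5, a RAB7 GTPase-activating protein bound to VPS29, changed by -1.75, -1.25 and -1.65. Of 12 cargo genes, 3 rose and 4 fell in KO1, 4 and 7 in KO2 and 5 and 6 in KI. Slc2a1, the glucose transporter GLUT1, rose by 2.99, 3.19 and 3.45, Slc11a2, the iron transporter DMT1, rose by 2.19, 2.54 and 2.86, and Sort1, the sorting receptor sortilin, changed by -2.56, -4.76 and -2.29.

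Between genotypes no gene of these lists was called in KO1. Over the lists together, 3, 13 and 6 of 66 genes tested were called at 0 h, 6 h and 24 h in KO2, beside 8.28%, 15.4% and 11.3% of all genes, and 3, 7 and 6 of 67 in KI, beside 2.94%, 11.5% and 7.20%. In KO2 at 6 h, 1 WASH gene, 3 regulators, 1 cargo gene and 1 tether rose, and 3 other nexins, 2 regulators and 2 cargo genes fell. In KI at 6 h, 1 WASH gene, 2 other nexins and 2 cargo genes rose, and 1 regulator and 1 cargo gene fell. Wash was higher at 6 h in both KO2 (0.65 ± 0.20, adjusted p = 0.02) and KI (1.06 ± 0.23, 0.0013), with -0.14 in KO1. Snx20, a nexin of P-selectin ligand sorting, was higher at 0 h in KO2 (0.995 ± 0.326, 0.044) and KI (3.16 ± 0.43, 5.6e-06), with 1.10 and an adjusted p of 0.79 in KO1. Lrrk2 and Slc11a2 were called at 6 h in both cohorts in opposite directions, Lrrk2 at 0.79 in KO2 and -0.67 in KI and Slc11a2 at -0.36 and 0.41.

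Over the 18 group means, centred within cohort, the members fell into a pattern given here as a description, since all share the 3 times. Snx2 ran with Snx6 (r 0.851) and Vps29 (0.813) and against Vps26b (-0.919) and Snx1 (-0.765), while Snx5 ran against Snx6 (-0.901) and Vps26a against Vps26b (-0.720). Vps35 ran closest to Snx5 among members (0.689). Among 10612 genes, those most like Vps35 by Pearson r over the 18 means included Elovl5 (0.825), Baiap2 (0.809), Glb1 (0.804) and Memo1 (0.799). The members with a strong time course had closer matches: A630001G21Rik for Snx2 (0.993), Appbp2 for Snx6 (0.988), Gab3 for Snx5 (0.979), Tmem106b for Vps26b (0.974) and Rnf128 for Snx1 (0.958). Tdeanc2 was most like Vps29 (0.937), Fam107b like Snx27 (0.925), Degs1 like Snx3 (0.904) and Hnrnpk like Vps26a (0.871).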

How the data were processed

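Macrophages grown from mouse bone marrow were sequenced after Smart-Seq2, primed with oligo-dT, in paired reads without strand or molecular identifiers, per the labels. The authors deposited raw counts per gene symbol, 1 table per cohort, made with TopHat and HTSeq on mm10 per the submitters' processing notes; versions and annotation are not given in the sources used here. The tables hold 137 libraries in 18 groups. No pair of libraries of a group among 467 looked like a copy (smallest chi-square per degree of freedom 3.22).

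Repeats of a KO1 culture were summed. Genes passed filterByExpr, were scaled by TMM and fitted per cohort with a mean for each of 6 groups by the quasi-likelihood test of edgeR 4.0.16 (R 4.3.3), with Benjamini-Hochberg adjustment over 13693 (KO1), 10794 (KO2) and 11500 (KI) genes; the script was tested on simulated counts. The SE was obtained by dividing the size of the log2 fold change by the root of the F statistic. Alternatives were DESeq2 1.42.0, its size factors, library totals, no filter beyond 1 count, a replicate block, only the groups compared, voom in limma 3.58.1 on single KO1 libraries, summed libraries, leaving out samples with conflicting labels, and leaving out single replicates; library totals and single KO2 and KI libraries were added after the data were seen. KO1 culture numbers paired 0 h with 6 h (correlation of deviations 0.255 to 0.618 in WT and 0.203 to 0.442 in KO) and 6 h with 24 h (0.139 to 0.568 and 0.370 to 0.504), from the data and not from the labels, but not 0 h with 24 h (lowest -0.151).

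Members and lists were chosen with earlier results of these data known. Besides the 10 members, Becn1 and Nos2, the genes named were up to 3 per list called in the same direction in WT cells of all cohorts at 6 h by their smallest change, any called between genotypes in 2 cohorts, and those most like a member over group means. Of the genes that this rule names, 1 is not reported here. Positions are from GENCODE vM21 and promoters from RefSeq.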

Additional observations from a re-analysis of the deposited data

Results flagged for a closer look

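Single libraries stood apart from their group in 9 of the 120 comparisons of a member within a group of 6 to 8 libraries, and chance alone flags about 1 in 20. Values are TMM-scaled CPM. The scaffold Vps35 was low in KO2 WT at 24 h replicate 9 (71.0, others 133 to 179) and in KO2 KO at 6 h replicate 7 (25.5, others 135 to 184), and that KO library was also low in Vps26a (97.1, others 190 to 265). Snx5 was high and Snx6 was high in KO2 WT at 6 h replicate 4 (153 with others from 105 to 121.5, and 227 with others from 184 to 202). Snx5 was low in KO2 KO at 6 h replicate 4 (76.5, others 102 to 117), and Snx27 was low in KO2 WT at 0 h replicate 8 (18.55, others 24.3 to 29.1). In KI, Vps29 was high in F121A at 0 h replicate 5 (55.2, others 40.8 to 45.2) and Snx1 was low in WT at 24 h replicate 5 (126, others 141 to 147).

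The genotype difference depended on time for 4 members by the joint test in edgeR, given here as the difference at 24 h minus that at 0 h. It was 0.56 for Snx3 in KO2, and 0.55 for Snx1, 0.55 for Snx5 and 0.70 for Vps26a in KI.

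The genotype difference of KO2 minus that of KI passed the test at 6 h for Snx2 (-0.59), Snx27 (0.76) and Snx6 (-0.46) and at 24 h for Snx5 (-0.61) and Snx6 (-0.46). That of KO1 minus KI passed at 6 h for Snx6 (-0.72).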

How the results depend on the processing

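A member's value counted as kept when the main fit and the alternative both called it with the same sign, or neither did. DESeq2 kept 292 of 300 such values, DESeq2 size factors 384 of 390 and the replicate block 264 of 270. The fit on only the groups compared kept 261 of 270, the fit without conflicting samples 199 of 200 and summed libraries 187 of 200. No filter beyond 1 count kept 273 of 300 and leaving out 1 replicate 1214 of 1260. Calls of the main fit were lost for 5, 6, 1, 8, 1, 13, 22 and 41 values in these alternatives, in the order given. Voom on single KO1 libraries kept 89 of 100 values in this sense and added 11 calls. Library totals kept 216 of 300 and turned the sign of 36 called on either scale. Single libraries in place of summed repeats moved 2 of 18 KO1 ratios by more than the spread, Vps26a to Vps26b in WT at 0 h (6.19) and Snx5 to Snx6 in KO at 6 h (0.813). Replicate numbers of KO2 and KI did not pair the samples of any groups compared (every correlation was over 0.1 only for KI WT at 24 h with F121A at 6 h, 0.162 to 0.401, which no test compares). Under the replicate block the members called in KO1 WT at 24 h against 0 h went from 2 to 4, with Snx1 (0.56) and Snx2 (0.63) added, in a comparison whose numbers did not pair.

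With library totals the members called moved from 2 to 6 (KO1 WT 24 h against 0 h), 6 to 10 (KO1 mutant 6 h against 0 h), 4 to 9 (KO2 mutant 24 h against 0 h), 2 to 1 (KO2 genotype at 0 h), 1 to 0 (KO2 genotype by time), 5 to 3 (KI genotype at 24 h) and 3 to 1 (KI genotype by time). Without the filter they moved from 4 to 2 (KO1 mutant 24 h against 0 h), 2 to 1 (KO2 genotype at 0 h and at 6 h), 1 to 0 (KO2 genotype by time) and 5 to 3 (KI genotype at 24 h). Summed libraries gave 1, 1 and 0 in KO2 at 0 h, at 6 h and by time. Voom on single libraries gave 6 in KO1 WT at 24 h against 0 h and 8 in KO1 mutant at 24 h against 6 h, from 2 and 5. The cause of these moves was not tested.

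Signs turned with library totals as follows, at 6 h against 0 h in WT: Vps29 -0.95 (KO1), -0.41 (KO2) and -0.35 (KI), Vps26a -0.98, -0.27 and -0.94, Snx27 -0.51 (KO1) and Snx3 -1.15 (KI). In mutant cells they were Vps29 -1.27, -0.40 and -0.68, Vps26a -0.65, -0.36 and -0.90, Snx27 -0.75 (KO1) and -0.63 (KO2) and Vps35 -1.29 (KI). At 24 h against 0 h in WT they were Vps29 -1.003 (KO1) and -0.80 (KI), Vps26b -1.003 (KO1) and -0.74 (KI), Snx2 -0.032 (KO2), Snx1 -0.71, Snx3 -0.74 and Snx6 -0.062 (KI). In mutant cells they were Vps29 -1.002, Vps26a -0.70 and Snx1 -0.14 (KO1), Snx1 -0.50, Snx2 -0.012 and Snx3 -0.54 (KO2), and Vps26a -0.67, Vps26b -0.73, Snx1 -0.26 and Snx3 -0.60 (KI). From 6 h to 24 h in WT, Snx5 in KI became 0.10. The median of all genes moves with this scale by construction.

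Leaving out 1 culture in KO1 gave 5 to 6 members called in WT at 6 h against 0 h, 2 to 4 at 24 h against 0 h (4 without S37) and 4 to 6 at 24 h against 6 h, and in KO 3 to 6 (3 without S36), 2 to 5 (2 without S36 or S38) and 3 to 6 (3 without S36 or S38). Between genotypes in KO1 it gave 0 each time. In KO2 between genotypes it gave 2 at 0 h and 1 to 2 at 6 h, 1 without WT replicate 1, 2 or 4 or KO replicate 4, 6 or 8. In KI between genotypes it gave 2 at 6 h and 4 to 5 at 24 h. Counts went down to 13 for Vps26b and 22 for Snx27 in a library, which limits the precision of those values.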
